A study of Caenorhabditis elegans with 2 samples.

Results

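The Rab GTPases of membrane traffic considered here were 10 of the 19973 protein-coding genes on the 6 nuclear chromosomes of the nematode Caenorhabditis elegans: rab-1, unc-108 (which encodes RAB-2), rab-3, rab-5, rab-7, rab-8, rab-10, rab-11.1, rab-11.2 and rab-35. The genes were chosen by name, with the peaks of rab-7 and unc-108 in these same lists already known, so their shares and signals are given as a description with no test. Chromatin immunoprecipitation with sequencing had mapped the zinc finger protein ZTF-4, fused to eGFP, in whole L1 larvae of strain OP322 (unc-119(ed3) III; wgIs322), of pooled sexes and unknown age. The labels give 1 group of 2 biological replicates and no other condition, and do not name the promoter of the inserted transgene. The authors deposited regions called in each replicate, on both replicates pooled, and after selection by irreproducible discovery rate (IDR), a measure of whether a region ranks alike in both replicates. A whole-animal library cannot tell strong binding in few cells from weak binding in many. Every region was taken whose summit lay from 2000 bp upstream of the annotated 5' end to the end of the gene, called the gene window below.

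Rab proteins are small GTPases that switch between a GDP-bound and a GTP-bound form and, in the GTP-bound form, recruit effectors that move, tether and fuse vesicles at a given membrane. RAB-1 and RAB-2 act around the endoplasmic reticulum and Golgi, RAB-3 on synaptic vesicles, RAB-5 on early endosomes and RAB-7 on late endosomes and lysosomes. RAB-8, RAB-10, RAB-11 and RAB-35 serve export to the plasma membrane and endocytic recycling. Many are used by every cell, whereas RAB-3 is mainly neuronal.

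The sequence beneath the peak of rab-7, the strongest outside unc-108, is shown beside that of the weakest, rab-1, and beside a region of rab-3 that did not pass the IDR threshold, so that a reader can see how they differ. Each run holds the 101 bases centred on the summit, on the strand of the gene (the minus strand in all of them) in ce11, from the RefSeq copy of the same assembly, WBcel235. The rab-7 run lies at II:11967675-11967775, the rab-1 run at V:1264479-1264579 and the rab-3 run at II:5727870-5727970. None overlaps an annotated UTR. Capitals mark matches to the 5 6-mers described further on.
rab-7 IDR peak: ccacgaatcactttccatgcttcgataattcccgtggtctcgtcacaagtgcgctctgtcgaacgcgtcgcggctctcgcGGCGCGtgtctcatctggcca
rab-1 IDR peak: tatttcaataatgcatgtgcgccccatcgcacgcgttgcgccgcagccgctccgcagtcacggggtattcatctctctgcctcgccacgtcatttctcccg
rab-3 region below threshold: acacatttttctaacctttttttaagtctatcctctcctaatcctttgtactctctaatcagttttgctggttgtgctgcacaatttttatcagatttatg
The G and C content was 59.4% in both the rab-7 and the rab-1 run and 32.7% in the rab-3 run. It was not computed for other regions below the threshold, so the rab-3 run does not stand for them.

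Of the 10 genes, 6 held an IDR peak in the gene window, namely rab-1, unc-108, rab-5, rab-7, rab-10 and rab-11.1. Over all protein-coding genes the same rule called 9.59%. The gene windows of the Rab genes were 3197 to 8087 bp long, with a median of 3594.5 bp, against a median of 4027 bp for all genes. Any effect of window length on the count was not tested. In the narrower promoter window, which starts 1000 bp upstream of the 5' end and ends 200 bp past it, 5 of the 10 had an IDR peak, while 6.07% of all genes did. The 5 were the same genes without rab-10, whose summit lay at −1186 bp. The exact Clopper-Pearson 95% interval of 5 of 10 runs from 18.7% to 81.3% and covers counting error only. It treats the genes as random draws, but they were chosen with the peaks of rab-7 and unc-108 known. The interval is therefore no test against the share of all genes. When each replicate was read alone to the depth of the IDR list, its 1898 strongest regions, 4 of the 10 had promoter summits within 100 bp of each other in both replicates (unc-108, rab-5, rab-7 and rab-11.1), against 4.01% of all genes. In the relaxed pooled list, which also holds background, 8 of the 10 had a region in the gene window and so did 55.5% of all genes.

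**Figure D1:**
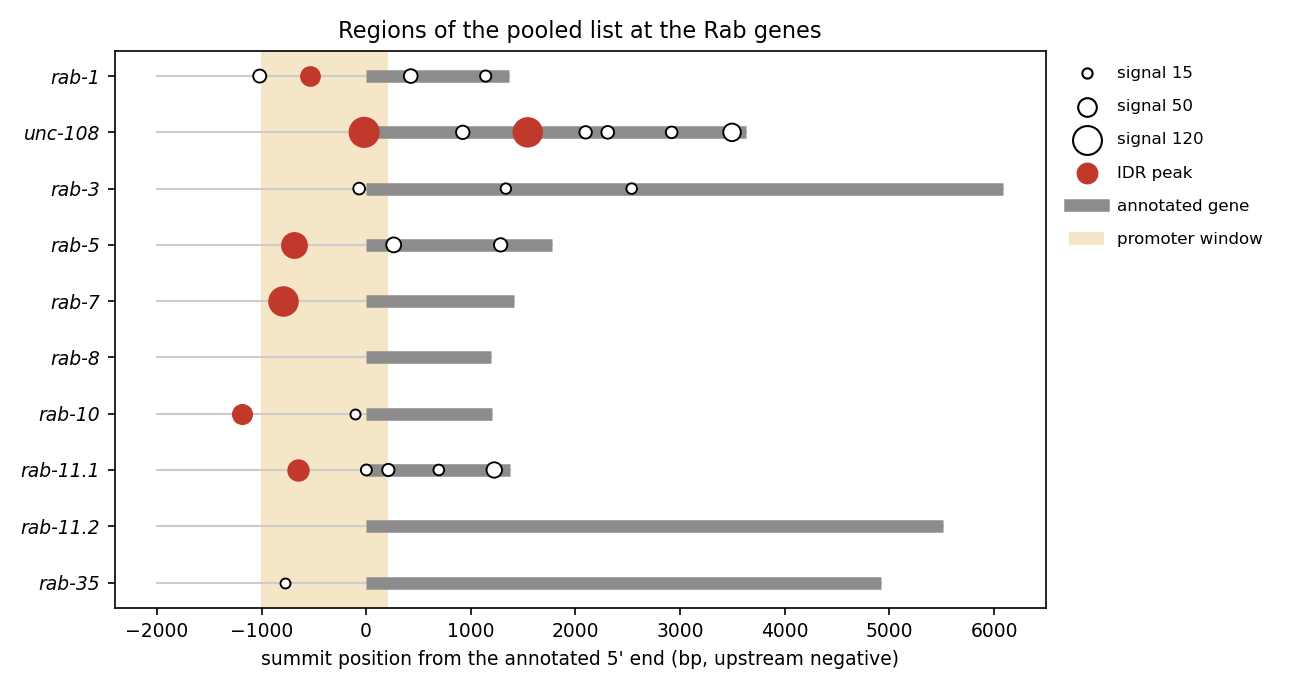
Position of every pooled region at the 10 Rab genes, as distance of its summit from the annotated 5' end in bp, with the circle area proportional to the signal. Filled circles are the 7 IDR peaks, open circles are regions below the IDR threshold, grey bars are the annotated genes and the shaded band is the promoter window. The rab-8 and rab-11.2 rows hold no region.

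unc-108, needed in worm neurons for the maturation of dense core vesicles, was the only one of the 10 with more than 1 IDR peak. The first, at I:3822689-3823038, had its summit at −19 bp, just upstream of the 5' end. Its signal, the height that the authors' caller gave the region, was 59.8 in replicate 1, 68.0 in replicate 2 and 123 in the pooled and IDR lists, where it ranked 330 of 1898. A second peak, of nearly the same height, lay in an intron at I:3824252-3824601, with its summit at 1544 bp. There the signal was 51.6 in replicate 1, 76.1 in replicate 2 and 118 in the IDR list (rank 363). Measured from the first bases of 2 shorter annotated coding transcripts of the gene, that summit lay at −520 bp and −715 bp. A further region at 3496 bp, in a UTR near the 3' end, stayed below the threshold with a pooled signal of 44.4 (rank 2306). It was found in both replicates, at 21.4 and 24.0, and also lies in the promoter window of mpc-2. The remaining 4 pooled regions of unc-108 had signals between 19.4 and 25.8.

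The endosomal genes rab-5 and rab-7 had single, strong upstream peaks. At rab-7 the peak covered II:11967550-11967899, with the summit at −794 bp in intergenic sequence. It reached 59.0 in replicate 1 and 58.2 in replicate 2, ranks 383 and 378, and 118 in the IDR list (rank 358). No other pooled region fell in the rab-7 window. At rab-5 the peak covered I:9307573-9307922, with its summit at −694 bp, also intergenic. Replicate 1 gave 45.03, replicate 2 gave 42.56 and the IDR list 89.7 (rank 610). Both genes thus had replicates that lay close to each other and far above the level at which the 1898 strongest regions ended, 27.0 in replicate 1 and 26.1 in replicate 2. Inside the rab-5 gene, 2 weaker pooled regions had signals of 31.8 and 25.7, and the latter also lies in the promoter window of uev-3.

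rab-11.1, rab-10 and rab-1 had weaker peaks. The rab-11.1 peak, at a gene for recycling endosomes, covered I:110532-110881 with its summit at −650 bp, within exons of the non-coding genes F53G12.15 and F53G12.16. Its signal was 29.0 in replicate 1 and 28.6 in replicate 2, just inside the 1898 strongest of either, and 60.6 in the IDR list (rank 1305). The rab-10 peak, at a gene needed for basolateral recycling in the worm intestine, covered I:6459490-6459839 with its summit at −1186 bp. It stood at 22.4 in replicate 1 (rank 2735), 33.9 in replicate 2 (rank 1165) and 53.1 in the IDR list (rank 1673). The rab-1 peak covered V:1264354-1264703, with its summit at −540 bp inside the exon of C39F7.7, a non-coding gene. Its values were 21.4 in replicate 1 (rank 2990), 31.7 in replicate 2 (rank 1339) and 51.3 in the IDR list (rank 1788). The lowest IDR signal was 49.6, so rab-1 and rab-10 sat near the threshold and fell outside the 1898 strongest regions of replicate 1. Below the threshold, 3 further pooled regions of rab-1 had signals from 18.04 to 26.99, and 1 of rab-10 had 14.4. A further 4 of rab-11.1 ranged from 16.4 to 34.1, and the highest also lies in the promoter window of Y48G1C.8. The rab-11.1 region at 2 bp, on the 5' end itself, had a pooled signal of 17.3 and was found in replicate 2 (24.1) and not in replicate 1.

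**Figure D2:**
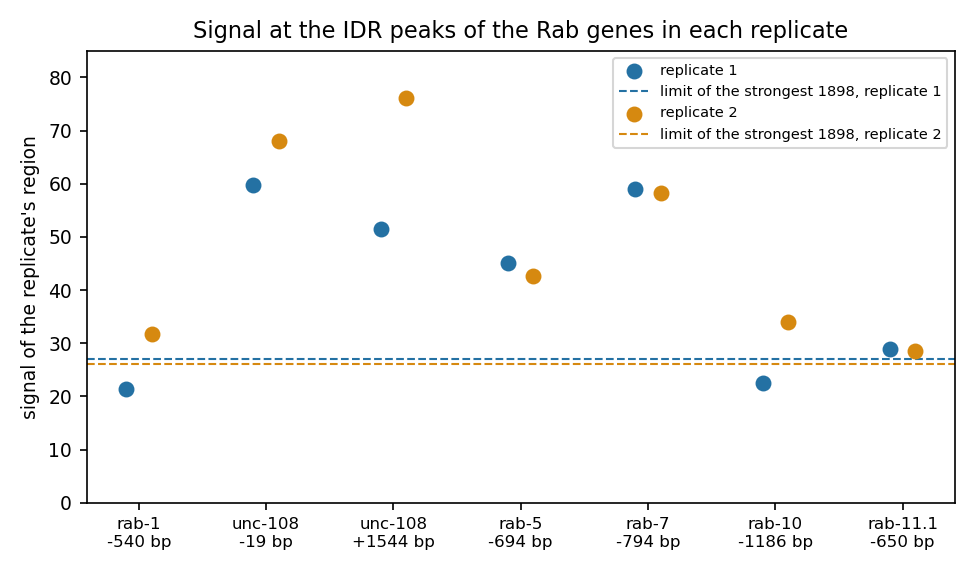
Signal of the region matched within 100 bp in replicate 1 (blue) and replicate 2 (orange) at each of the 7 IDR peaks, with the summit's distance from the 5' end under each gene. Dashed lines are the lowest signals among the 1898 strongest regions of each replicate, 27.0 and 26.1, and the replicate 1 values of rab-1 (21.4) and rab-10 (22.4) lie below the line.

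Replicates differed little at some of these peaks and more at others. On the log2 scale, replicate 2 minus replicate 1 was −0.02 at rab-7, −0.02 at rab-11.1, −0.08 at rab-5 and 0.19 at the first unc-108 peak. It was 0.56 at the intronic unc-108 peak, 0.56 at rab-1 and 0.60 at rab-10. Across the 1767 IDR peaks matched in both replicates the quartiles of this difference were −0.37 and 0.34, and the central 90% ran from −1.06 to 0.97, so the latter 3 peaks were outside the quartiles but well within that wider range. Replicate 1 had 28 relaxed regions in the gene windows, of which 12 (42.9%) had a replicate 2 summit within 100 bp, against 27.3% of its whole list. All 5 of those 28 that were among its 1898 strongest were matched, as were all 7 in replicate 2, against 83.7% and 86.4% over the lists. The IDR procedure favours such regions, so this is no independent measure of agreement.

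rab-3, rab-8, rab-11.2 and rab-35 had no IDR peak, and their nearest IDR summits lay 26177, 35962, 27033 and 67974 bp downstream of their 5' ends. rab-3, which regulates synaptic vesicle release, had 3 pooled regions with signals from 15.8 to 19.8. The highest of these, with its summit at −67 bp, is the third sequence shown above. It matched a region of signal 15.7 in replicate 1 and none in replicate 2. At rab-8, whose product acts in transport to the plasma membrane, only replicate 2 had regions, one of signal 14.8 at −426 bp (rank 6233) and a weaker one at −1299 bp (rank 14891). At rab-11.2, the second rab-11 gene, only replicate 1 had regions, of signal 8.50 and 7.90. The annotated coding transcript of rab-11.2 starts 4759 bp inside the gene, because a non-coding transcript extends the gene upstream, and no pooled region fell anywhere in that window. rab-35 had a single pooled region of signal 14.4 (rank 22683 of 23044), matched in neither replicate. The files give no read depth, so these values do not show whether binding below the IDR threshold was present or absent at these genes.

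Most upstream peaks of the Rab genes were shared with a neighbour. For rab-1, rab-5, rab-7, rab-10 and rab-11.1 the summit lay between 2 genes transcribed away from each other. The rab-1 peak was nearer to C39F7.5 (244 bp) than to rab-1 (540 bp), in a gap of 783 bp. The rab-11.1 peak was nearer to rpl-7, a gene of the large ribosomal subunit (331 bp), than to rab-11.1 (650 bp). At rab-7 the 2 genes were W03C9.5 and mex-1, and W03C9.5 lay between the peak and rab-7. The summit was 181 bp upstream of W03C9.5, a gene on the same strand that overlaps the 5' part of rab-7 by 47 bp. It was 912 bp upstream of mex-1, which encodes a zinc finger protein of the early embryo. In contrast, the rab-5 peak was nearer to rab-5 (694 bp) than to nmat-2 (904 bp), an enzyme gene of NAD synthesis. At rab-10 the summit was almost midway, 1186 bp from rab-10 and 1213 bp from the kinetochore gene knl-2. The first unc-108 peak lay in the promoter window of no other protein-coding gene.

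Which gene such a peak serves cannot be told from its position. With each peak given only to the gene with the nearest 5' end, 2 of the 10 kept a promoter peak (unc-108 and rab-5), against 4.54% of all genes. With peaks in the windows of several genes left out, 1 of the 10 (unc-108) did, against 3.15%. A window of 300 bp upstream to 100 bp downstream likewise left unc-108 alone, against 3.60% of all genes. Of the 1213 genes with a promoter peak, 255 had their strongest one more than 500 bp upstream and 586 (48.3%) shared it with another gene's window. Among the 5 Rab genes each of these numbers was 4. The median position was −650 bp for the Rab genes and −246 bp for all.

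In height, the promoter peaks of the Rab genes were spread over much of the ranking of genes, but none was among the highest. unc-108 ranked 265 and rab-7 ranked 280 among the 1213 genes, with 21.8% and 23.0% of genes higher. rab-5 ranked 455, rab-11.1 ranked 893 and rab-1 ranked 1162. Their median signal was 89.7, against 78.3 for all 1213 genes, whose quartiles were 60.0 and 111 and whose highest value was 904. The genes with promoter peaks most like that of unc-108 in both replicates, by distance in log2 signal over 1169 genes matched in both, were ppk-3 (59.3 and 68.2), rpl-24.2 (60.2 and 68.4) and rpl-41.2 (59.5 and 66.1).

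**Figure D3:**
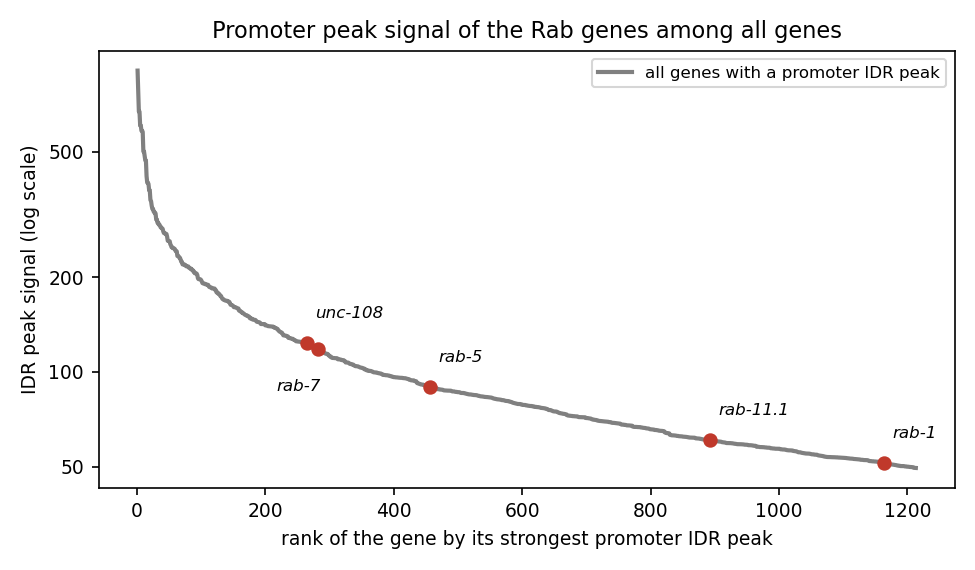
Signal of the strongest promoter IDR peak of each of 1213 genes on a log axis, in descending order (grey line), with the 5 Rab genes that have one marked in red. unc-108 (123) and rab-7 (118) lie in the upper part of the curve and rab-1 (51.3) near its end.

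Short sequence motifs that recur under other ZTF-4 peaks were found at 3 of the 7 Rab peaks and at 34.1% of the other IDR peaks. Each of 2080 6-mers, read together with its reverse complement, was counted within 50 bp of the summits of the 1891 IDR peaks outside the Rab gene windows and in windows centred 300 bp to each side. The 5 with the largest ratio among those in at least 5% of these peaks were GCGCGC (6.77% of summits, 0.714% of flanks), ACGCAG (17.3% and 1.90%), GACGCA (17.8% and 2.14%), AGACGC (15.4% and 1.93%) and CGCGCC (7.93% and 1.16%). The second, the third and the fourth overlap one another, and the first can overlap the fifth. At least 1 of the 5 was present at 34.1% of those summits, against 5.63% of flanking windows. Of the 7 Rab peaks 3 had one. The intronic unc-108 peak held the second, the third and the fourth, the rab-5 peak held ACGCAG, and the rab-7 peak held CGCGCC, printed in capitals above as its reverse complement. The 101-base windows at rab-1, rab-10, rab-11.1 and the first unc-108 peak held none of these letters in a row. In G and C content all 7 Rab peaks (51.5% to 68.3%) lay at or above the upper quartile of the other IDR peaks, 51.5%, whose median was 46.5%.

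Promoter peaks were also counted in 3 further lists of genes of the Rab cycle, for which 6.07% of all genes again give the background. Of 13 further Rab genes 2 had an IDR promoter peak (15.4%, exact 95% interval 1.92% to 45.4%). The rab-18 peak at III:1080687-1080829 was higher than any of the 10 genes above, with 88.5 in replicate 1, 120 in replicate 2 and 197 in the IDR list (rank 107), and its summit also lies in the windows of the kinetochore gene kbp-4 and the polarity gene par-2. The rab-14 peak at X:15606938-15607287, shared with nipi-3, had 57.8, 49.8 and 106. Of 36 exchange factors, GTPase-activating proteins and carriers found under the listed names, 6 had a promoter peak (16.7%, interval 6.37% to 32.8%). The highest were at trpp-9, a subunit of the TRAPP exchange complex (91.3), glo-4, the exchange factor of the gut granule Rab GLO-1 (77.9), and ccz-1, which acts in the activation of RAB-7 (74.0) and shares its peak with tag-65. The other 3 were tbc-14 (69.5) and tbc-6 (52.0), with TBC domains, and gdi-1, which extracts GDP-bound Rab proteins from membranes (53.1). Of 31 effectors and tethers 2 had one (6.45%, interval 0.791% to 21.4%), the exocyst gene sec-15 (139) and eea-1, an effector of RAB-5 (74.9). Both of these peaks were shared, with C28G1.2 and gut-2 respectively, and neither effector kept one with the nearest gene only or with shared peaks left out. At sec-15 replicate 1 gave 65.0 and replicate 2 gave 72.1, whereas at eea-1 the values were 24.3 and 46.3.

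**Figure D4:**
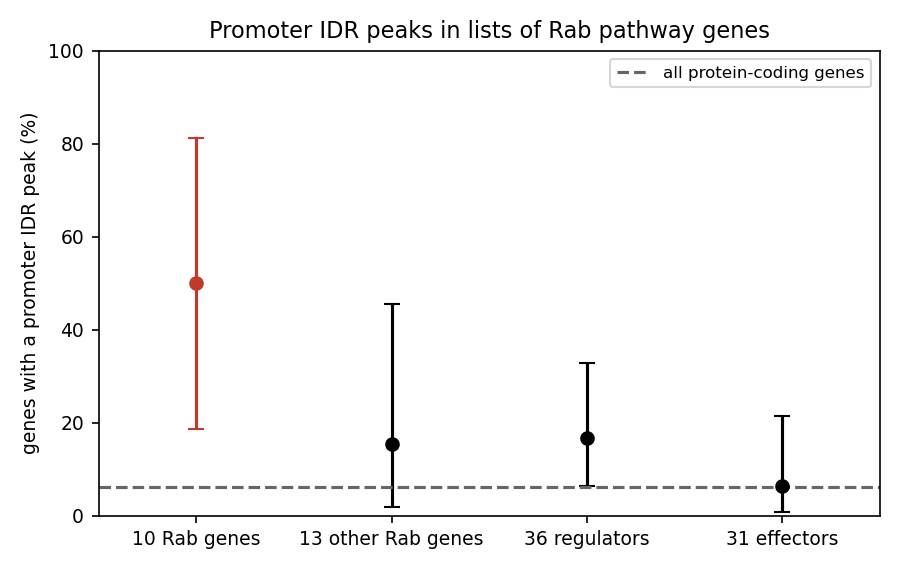
Share of genes with an IDR summit in the promoter window, in percent, for the 10 Rab genes (red) and 3 further lists (black), with exact Clopper-Pearson 95% intervals for counting error. The dashed line is the 6.07% of all protein-coding genes, and the points stand at 50%, 15.4%, 16.7% and 6.45% from left to right. Genes and lists were chosen with earlier results of these data known, so the intervals are no test against the line.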

How the data were processed

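Regions from 2 replicates of 1 group were used as deposited in ce11. Regions had been called against a control, not analysed here, in each replicate and on pooled alignments, and IDR peaks derived from them, per the deposited text records. Not given in the sources used here were aligner, caller and IDR cutoff. Each signal (column 7) is the authors' own height of a region, and the deposited −log10 q value was read but not used, being tied among strong regions. Depth is unknown, since the files hold no read counts. Lists in ce10 were not used.

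Coordinates, printed from base 1, were annotated with Ensembl release 115 on WBcel235. Regions were ranked by signal within each list, and summits within 100 bp were called the same site. With 1 group there is no contrast and no test, and counts stand beside the share of all protein-coding genes. Members and lists were chosen with earlier results of these data known. Named besides the 10 genes are the genes sharing or holding their peaks, up to 6 per further list by signal, the 3 most like unc-108 and the 5 6-mers. Of 70 listed regulators and effectors, 67 were found by name. Window and 6-mer counting was tested on simulated data. Python 3.11.15, numpy 2.4.6, pandas 2.3.3, scipy 1.17.1 and matplotlib 3.10.9 were used.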

Additional observations from a re-analysis of the deposited data

How the results depend on the processing

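Counts of genes with an IDR peak moved with the peak list and with how peaks were given to genes, and the share of all genes moved too. In the gene window the count of 6 became 3 with the 949 strongest IDR peaks (5.26% of all genes) and 3 with the nearest gene only (6.32%). In the promoter window the count of 5 became 3 with the 949 strongest peaks (3.41% of all genes), 8 with the whole pooled list (32.6%), 2 with the nearest gene only (4.54%), 1 in the narrow window (3.60%) and 1 with shared peaks left out (3.15%). The count of 4 in both replicates became 2 with the nearest gene only (2.93%), 1 in the narrow window (2.30%), 1 with shared peaks left out (2.05%) and 2 with a matching distance of 50 bp (3.44%). With the promoter shares of all genes just given, the 2 further Rab genes became 7 in the pooled list, 1 in the narrow window and 0 with shared peaks left out, and the 8 regulators and effectors became 5 with the 949 strongest, 37 in the pooled list and 5 with shared peaks left out. With replicate 1 left out the gene window gave 6 (9.56% of all genes) and the promoter window 5 (6.06%). With replicate 2 left out the gene window gave 4 (9.09%) and the promoter window 4 (5.53%). Against the same promoter shares, the further Rab genes stayed at 2 either way. The regulators and effectors gave 9 without replicate 1 and 5 without replicate 2. Counting overlap by 1 bp, any coding transcript start or the wide window moved no count by over 1.5 times. Rab peaks with a 6-mer numbered 3 at the summits of either replicate, but at those of replicate 1 the rab-10 peak had one and the rab-7 peak had none. Over the whole width of the region they numbered 4 of 7, where 51.5% of the other IDR peaks had one. These 6-mer settings were added after seeing the data. The cause of these moves beyond the settings' own construction was not tested. No paired analysis was possible because the labels give only 1 group.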

Other observations

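Peaks farther from Rab gene 5' ends than the promoter window were found at 2 of the 13 further Rab genes. The share of all genes with a peak in that outer stretch alone was not computed. In the wide window, 2000 bp upstream to 500 bp downstream, 3 of the 13 had an IDR peak, against 8.17% of all genes. rab-14 had a second IDR peak of signal 111 (rank 394) with its summit at −1058 bp, and rab-33 had one of signal 54.0 (rank 1613) at −1529 bp. Both were nearer to other genes. The rab-14 one is also the strongest promoter peak of nipi-3, at −276 bp. The rab-33 one is also that of taf-11.3 (−132 bp) and urm-1 (−98 bp).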
